A study of Homo sapiens with 11 samples.

Results

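The immunoprecipitates of ZFP36L2 from THP1 cells were compared with their control IgG precipitates, using every cluster of both deposited lists. Replicate 1 held 153162 clusters and replicate 2 held 143910, which makes 297072 of the 619845 clusters that the 4 IgG lists of the series contain. THP1 is an established human line of acute monocytic leukaemia. Of 11 libraries in the series, 2 THP1 immunoprecipitates and 2 THP1 IgG libraries are behind these lists, and the files set them against each other in numbered pairs. The files number these pairs differently from the samples, so replicates 1 and 2 are named here through the input table whose cluster coordinates are identical. In both groups 20000000 cells were irradiated at 254 nm with 400 mJ/cm2, RNA was trimmed with RNase I, and material from 30 to 105 kDa was cut from the membrane. The groups differ in the antibody, which was raised against ZFP36L2 in one and was control IgG in the other. The cells carried no genetic change or drug in the labels. Whether the replicates were grown as separate cultures is not stated in the labels, and their spread may be technical.

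ZFP36L2 is an RNA-binding protein with a pair of zinc fingers and belongs to the TIS11 family with ZFP36 and ZFP36L1. Its family recognises AU-rich elements, above all UAUUUAU and longer forms of it, in 3' UTRs, and brings the CCR4-NOT deadenylase to the mRNA. In monocytes such elements mark short-lived mRNAs of cytokines, growth factors and transcription factors. In enhanced crosslinking and immunoprecipitation (eCLIP), protein and RNA are joined by ultraviolet light before precipitation, and RNA fragments pile up as clusters where the protein sat. An IgG control shows which RNAs are carried along without the specific antibody.

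The fold of a cluster is the log2 ratio of immunoprecipitate over IgG, and its −log10 p is the authors' own, both taken from the authors' deposited lists. A cluster is called enriched here when both values are at least 3. By this rule 8786 clusters (5.74%) of replicate 1 and 12038 (8.36%) of replicate 2 were enriched. Gene and region names come from the authors' input tables for the same immunoprecipitates, by identical coordinates, and exist only for clusters that pass the same limits over input. Such listed clusters numbered 19306 and 18871, and 43.2% and 59.1% of them were enriched over IgG as well. The comparison over IgG and the one over input share the immunoprecipitate, so they are not independent. The samples used here hold 1 THP1 input library, so listing in both replicates may rest on a shared input. Values are given for replicate 1 and then replicate 2, for a gene's highest enriched cluster in each unless a shared site is named, and positions are 1-based on hg38 for the cluster of replicate 1.

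Sequence could be read where a cluster lay in the RefSeq windows around gene starts (GRCh38.p14, 250 bases before to 50 after), often windows of an antisense or neighbouring gene. Of the replicate 1 clusters enriched in both replicates, 9 had at least 20 bases in such a window. The 7 that hold TTATTTA or TATTTAT on the transcribed strand are shown because they let the AU-rich motif be seen inside the enriched cluster. Each stretch is read 5′ to 3′ as DNA on the transcribed strand, with the motif in capitals.
PRC1: ttgaagcactatTATTTATtcttccgctgt
EIF1B: gaagcgttttctTATTTATttccgttttct
H2BC7: gttgtggacgaagtgttTATTTATcatgcc
POLR2A: aacccggttactTATTTATtcgttaccctt
CEBPB: ccgcccgtggtgTTATTTAaagaagaaacg
FAM78A: tTATTTATgagtctgccggcgctcgcctgc
H2BC8: tTTATTTAagtgcgttcattctcactgctg

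The PRC1 stretch (chr15:90966208-90966237, minus strand) belongs to a cluster with log2 folds over IgG of 6.0 and 7.44, the highest of these. PRC1 encodes a microtubule bundler of dividing cells, and the tables place the cluster in a noncoding exon in replicate 1 and in the 3' UTR in replicate 2. The EIF1B stretch (chr3:40309830-40309859, plus strand) lies in a 5' UTR, with folds of 5.04 and 6.21. FAM78A (chr9:131276513-131276542, minus strand) is also a 5' UTR site, at 3.63 and 3.62. The CEBPB stretch (chr20:50192283-50192312, plus strand) lies in the 3' UTR of this monocyte transcription factor, at 3.68 and 5.37. The histone genes H2BC7 (chr6:26199534-26199563, plus strand) and H2BC8 (chr6:26216662-26216691, minus strand) appear as HIST1H2BF and HIST1H2BG in the tables, with 4.22 and 6.30, and 3.20 and 6.06. The POLR2A stretch (chr17:7484461-7484490, plus strand) was not listed over input in replicate 1 and reached 4.13 and 3.23 over IgG. The other 2 clusters, at STRN4 and next to AMDHD2, held none of these letters in the bases covered.

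The motif was counted in the same way in all clusters that the windows cover. TATTTAT on the transcribed strand was present in 5 of the 9 clusters enriched in both replicates and in 26 (2.22%) of the 1173 that were not enriched in replicate 1. In replicate 2 it was present in 3 of 11 and in 23 (1.72%) of 1337. On the opposite strand no covered cluster of either replicate held it. TTTTTTT, a plain run of T, was in none of the enriched clusters (0 of 13 and 0 of 16) and in 0.256% and 0.0748% of the others. It was so rare among the others that its absence from so few enriched clusters tells nothing about motif preference. The clusters enriched in both replicates had more bases to search, with a median of 82 and 53 covered against 43 and 45, and more A and T, with a median of 54.5% and 50.9% against 30.4% and 29.4%. Of all 35116 windows, each 300 bases long and searched on the strand of its gene, 2.48% hold TATTTAT. These windows sample gene starts, are few, and were chosen after the clusters were seen, so the counts describe these clusters and were not tested.

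The folds over IgG differed widely between clusters that were listed over input and those that were not. Listed clusters had a median log2 fold over IgG of 3.0 (quartiles 2.41 and 3.72) in replicate 1 and 3.55 (2.84 and 4.4) in replicate 2. Clusters not listed had a median of −0.32 and 0.38. Nearly all enrichment over IgG therefore lay on listed clusters, which made up 94.9% and 92.6% of the enriched ones. Over all clusters, the fold ran from −5.40 to 7.94 and from −5.79 to 8.27, and 54.3% and 60.4% were above IgG. The clusters nearest the limit had folds of 2.998 and 2.999 just below it and 3.0001 and 3.0003 just above it.

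**Figure D1:**
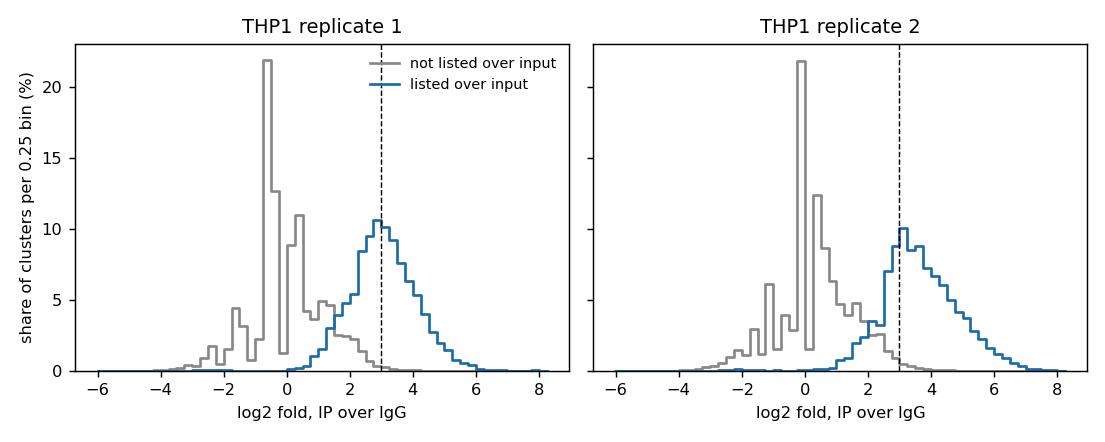
Distribution of the log2 fold of immunoprecipitate over IgG in each THP1 replicate, as the share of clusters per bin of 0.25, for clusters that the input tables list and those they do not. The dashed line is the limit of 3, and the listed clusters centre on medians of 3.0 and 3.55, while the others centre on −0.32 and 0.38.

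The fold over IgG took discrete values. In replicate 1, 27571 clusters shared a log2 fold of −0.74 and 16499 shared −0.32, which are the steps of whole numbers 3 and 4 on a common scale. On this scale 76.8% and 73.6% of all clusters, and 56.1% and 65.2% of the enriched ones, were at a constant plus log2 of a whole number (within 0.001 of the whole number). A log2 fold of 3 corresponds to step 40 in replicate 1 and to step 25 in replicate 2. The limit was thus reached at a lower step in replicate 2, where more clusters were enriched. A whole step does not by itself fix the denominator. VHL and CSNK1E, at their highest 3' UTR clusters of replicate 1, both lay on steps. VHL had the higher fold (7.02 against 6.77) but the lower −log10 p (49.1 against 81.8). Where clusters on these steps do share 1 denominator, their folds order them by the numerator alone. If that denominator stands for IgG without reads, which the files do not state, such folds are lower bounds and not measured ratios. The reads behind the steps were not given in the sources used here. Their part in the difference between replicates was not tested.

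Most clusters enriched in replicate 1 were enriched in replicate 2 as well. Of 8786, 7528 (85.7%) overlapped an enriched cluster of replicate 2 by 1 base or more on that strand, and 8013 of the 12038 of replicate 2 (66.6%) did so in turn. Merged where they touch, the shared clusters of replicate 1 form 5318 sites. Of the 4025 clusters enriched in replicate 2 alone, 3973 had a cluster at the same place in replicate 1, with a median fold of 2.54, and 2862 of these lay between 2 and 3. The clusters of replicate 2 that missed replicate 1 were thus mostly just below the limit there. Across 20074 overlapping pairs listed over input in both, replicate 2 exceeded replicate 1 by a median of 0.62 (SD 1.12 of the difference). A limma fit of the mean of both folds, with each immunoprecipitate paired to its IgG, was made for 84251 overlapping clusters, and 38580 (45.8%) were higher over IgG at an adjusted p of at most 0.05. Of these, 12215 (14.5%) had a mean log2 fold of at least 3, which was every cluster with such a mean. Every cluster was judged by a common SD of 0.78, so a cluster with such a mean could not fail to pass. The lists may hold clusters picked for their reads in the immunoprecipitate, so the counts from the fit are not separate support for binding. The 7528 shared clusters all passed, but they had been chosen for high folds in both replicates. Pearson's r across the listed pairs was 0.508, a correlation over clusters of the same 4 libraries, which are not independent.

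**Figure D2:**
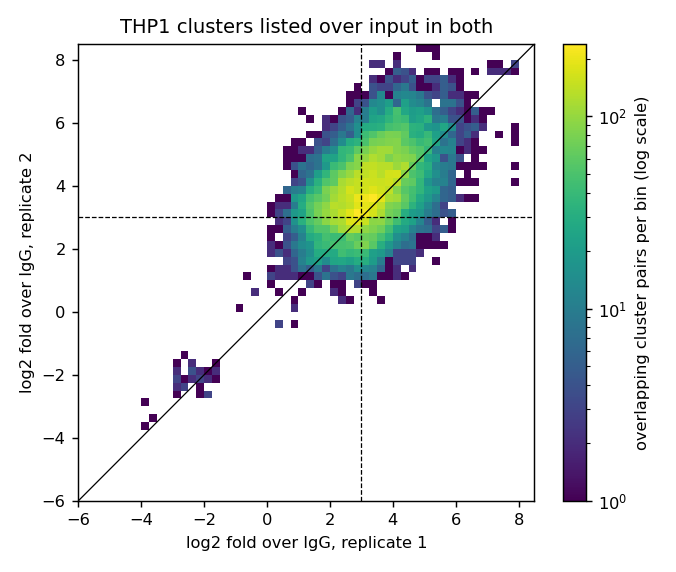
Log2 fold over IgG in replicate 1 against replicate 2 for 20074 overlapping pairs of clusters listed over input in both, as the number of pairs per bin of 0.25 (log colour scale), with the limit of 3 dashed and equality as a solid line. Most pairs lie above equality, and 42 pairs lie apart, below 0 in both replicates.

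Among regions with over 50 listed clusters in each replicate, enrichment over IgG was most frequent in 3' UTRs. Of listed 3' UTR clusters, 1694 of 3105 (54.6%) and 2049 of 3148 (65.1%) were enriched, with median folds of 3.32 and 3.62. Coding sequence followed in replicate 1 with 46.6% of 586 and distal introns in replicate 2 with 59.1% of 12101. 5' UTR clusters were enriched in 31.7% of 82 and 38.7% of 111, and their lower quartile fold was 1.62 in replicate 1 and −1.66 in replicate 2. Of the listed clusters shared by both replicates, 62.3% and 62.4% lay in distal introns of coding genes and 20.6% of each in 3' UTRs, the latter against 16.1% and 16.7% of all listed clusters. No difference between regions was tested, since clusters of the same libraries are not replicates.

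**Figure D3:**
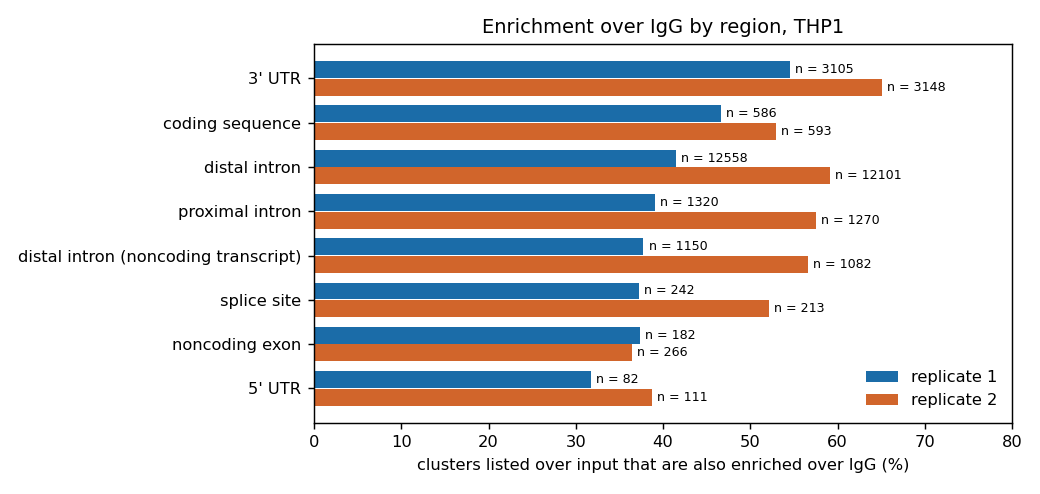
Share of clusters listed over input that are also enriched over IgG, by region, with the number of listed clusters beside each bar, for replicate 1 and replicate 2. 3' UTR clusters have the highest share in both replicates (54.6% and 65.1%) and replicate 2 is higher in every region shown but noncoding exons.

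At a like fold over input, 3' UTR clusters passed the limits for enrichment over IgG more often than distal intron clusters. With a log2 fold over input of 4 to 5, 54.7% and 67.3% of 3' UTR clusters were enriched over IgG, against 25% and 46.5% in distal introns. At 3 to 4 the shares were 38.1% and 50.4% against 11.6% and 22.0%. Coding sequence lay between them in both bands, with 44.4% and 58.0% at 4 to 5. At 6 or more the regions drew together, with 94.2% and 99.2% in 3' UTRs and 87.5% and 99.1% in distal introns. Within introns, enriched clusters were not nearer to the gene's end, with a median of 57656 and 56401 bases to the 3' end against 52725 and 52944 for the other listed ones, in genes longer than 10000 bases.

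**Figure D4:**
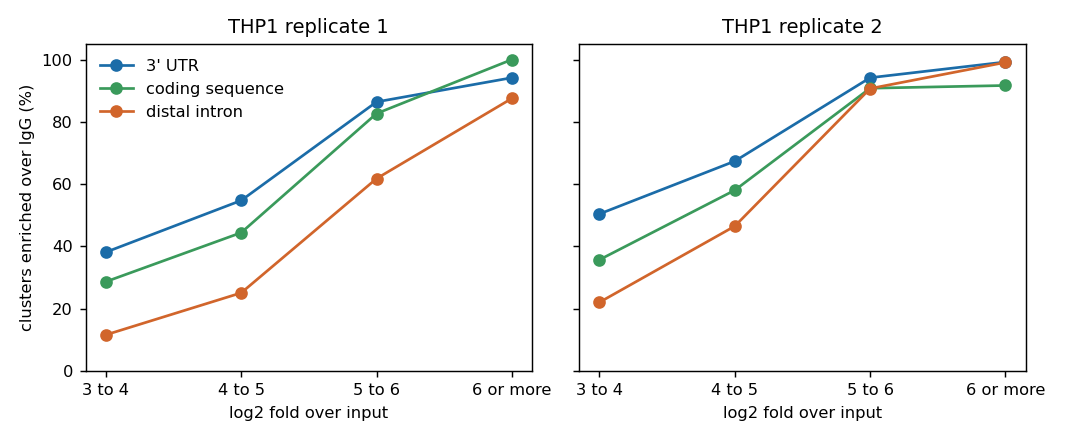
Share of listed clusters enriched over IgG within bands of log2 fold over input, for 3' UTR, coding sequence and distal intron clusters in each THP1 replicate. Below a log2 fold over input of 5 the 3' UTR line lies highest and the distal intron line lowest in both replicates.

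By name, 5003 genes had a listed cluster in both replicates, and 3113 (62.2%) had an enriched one in each. For 3' UTR clusters 901 of 1509 genes (59.7%) were enriched in both, and 749 of these had their highest clusters overlapping. For introns the count was 2294 of 3858 genes (59.5%). Of the 901 genes, 284 (31.5%) were also among the intronic ones, which is 12.4% of those. Over all 5003 named genes, 2294 were enriched in introns and 901 in 3' UTRs. The overlap was not tested. A single site was the usual pattern, since 2060 of 3119 genes with shared clusters (66.0%) had 1 site. At the other end 12 genes had 10 or more sites, led by LRMDA and the long noncoding gene PVT1 with 14 each and PDE4D with 13. These 12 genes had a median length of 315175 bases, against 50081 bases for genes with 1 site.

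Ordered by the lower replicate, the highest 3' UTR fold over IgG was that of SERINC3, a membrane protein of the serine incorporator family, with 7.88 and 7.86 (chr20:44499771-44499789). FOSL2, an AP-1 transcription factor subunit, followed with 6.50 and 6.90 as the highest cluster of each replicate, and at the same site (chr2:28416104-28416140) with 6.50 and 5.77. DLG4, a synaptic scaffold protein, had 6.63 and 6.49 at its shared site (chr17:7190584-7190600). VHL, the ubiquitin ligase subunit that marks hypoxia-inducible factors for destruction, had 7.02 and 6.44 (chr3:10150173-10150200). The order by the lower replicate favours genes whose replicates are close. Of the 15 highest clusters, 13 in replicate 1 and 9 in replicate 2 lay on the whole-number steps, so their order may follow the immunoprecipitate's reads alone.

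The next genes by the lower replicate include kinases, stress regulators and an RNA-binding protein. CSNK1E, a casein kinase of the circadian clock, had 6.77 and 5.85 at its shared site, and TMX2, a thioredoxin-related membrane protein, had 6.75 and 6.35. DDIT3, the stress transcription factor CHOP, reached 6.31 and 6.60 (chr12:57516594-57516677). STING1, the adaptor of cytosolic DNA sensing, reached 6.23 and 7.26 (chr5:139476107-139476132). FXR1, a relative of the fragile X protein that binds AU-rich mRNAs, had 6.20 and 6.61 at the shared site (chr3:180976900-180976920). PIM3, a survival kinase, had 7.40 and 5.63 at the shared site (chr22:49963626-49963636), the widest gap between replicates among these genes. SERTAD2, RAD21, FBXO28 and CERS2, with ZFP36L2 described next, completed the 15, the former with lower folds between 6.13 for CERS2 and 6.17 for SERTAD2. RAD21 is a cohesin subunit and CERS2 a ceramide synthase. At the clusters chosen as highest over IgG, 7 of the 15 were more enriched over IgG than over input in both replicates, as SERINC3 (7.12 and 7.28 over input) and VHL (6.26 and 5.44). At the shared site of FOSL2 replicate 2 went the other way, with 5.77 over IgG and 8.36 over input.

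**Figure D5:**
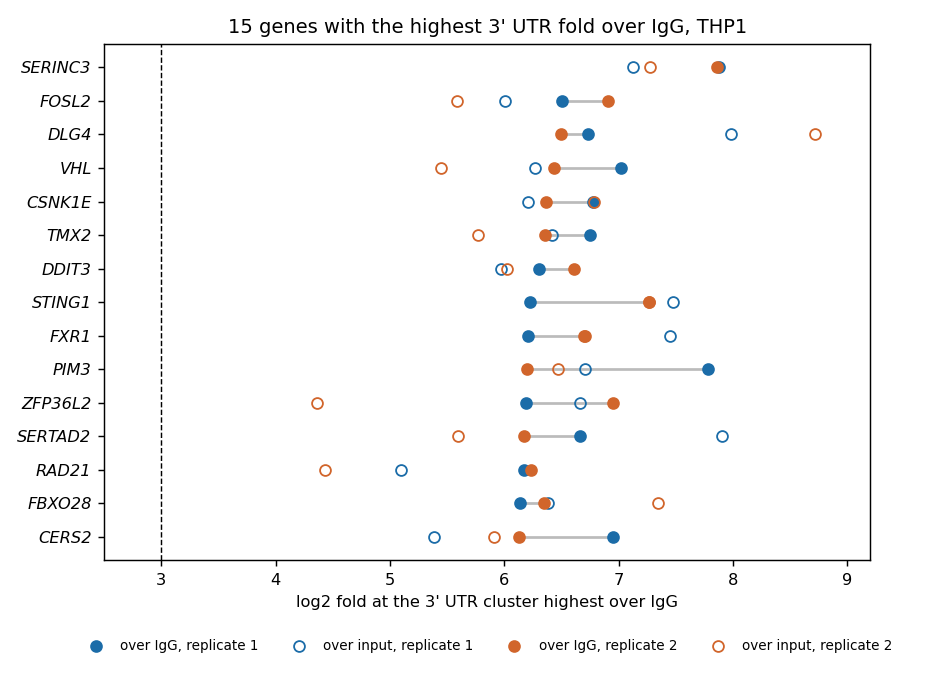
Log2 fold over IgG (filled) and over input (open) at the 3' UTR cluster that is highest over IgG in each replicate, for the 15 genes with the highest lower fold over IgG; the grey line joins the replicates over IgG and the dashed line is the limit of 3. All 15 have both replicates above 6 over IgG, with SERINC3 highest at 7.88 and 7.86.

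All 3 TIS11 family mRNAs were enriched over IgG in their own 3' UTRs, where 59.7% of all genes with listed 3' UTR clusters in both replicates were. ZFP36L2 itself had 6.19 and 6.68 at its shared site (chr2:43223456-43223464), with a −log10 p at the cap of 400 in both replicates. ZFP36, tristetraprolin, had 6.51 and 6.01 (chr19:39409223-39409309). ZFP36L1 had 4.49 and 4.70 (chr14:68788262-68788380), with a −log10 p of 7.39 and 8.23. The folds of ZFP36L1 lay below those of the other family members in both replicates.

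Coding sequence and 5' UTR sites were fewer, but some were among the strongest of all. NNT, the mitochondrial transhydrogenase, had 7.53 and 7.60 at its shared coding site (chr5:43700151-43700159). MARCHF6, a ubiquitin ligase of the endoplasmic reticulum, had 6.29 and 6.87, and LARS1, the leucyl-tRNA synthetase, 6.02 and 6.62. Of 306 genes with listed coding clusters in both replicates, 148 (48.4%) were enriched in both, and in 5' UTRs 18 of 47 (38.3%). The kinase TAOK3 led the 5' UTRs with 5.46 and 5.82 (chr12:118297158-118297230), ahead of the vesicle GTPase RAB27A (5.11 and 6.05) and EIF1B, shown above. In noncoding exons 35 of 73 genes (47.9%) were enriched, among them FBXL19-AS1 with 4.68 and 5.41 and the small nucleolar RNA host SNHG1 with 4.66 and 4.69.

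Intronic enrichment was led by GPHN, the receptor scaffold gephyrin, with 6.56 and 6.32 (chr14:66612252-66612366). PPFIA2, a liprin, had 6.30 and 5.97 at its shared site, and WDFY3, an autophagy adaptor, 6.07 and 7.06. PPP3CA, the catalytic subunit of calcineurin, had 6.02 and 6.02 at its shared site (chr4:101312423-101312515), and SETD5 had 5.97 and 6.04. The noncoding AL132656.4 had 6.33 and 5.97. At OLA1 and PRKCB, a protein kinase C gene, the highest clusters of the replicates did not overlap, and at the shared site the folds were 6.53 and 4.01, and 5.96 and 4.61. OLA1 and PRKCB thus did not hold their level at 1 site. A lower fold of 6 or more in both replicates was reached by 17 genes in the 3' UTR, 5 in introns and 4 in coding sequence.

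Several of the 16 gene lists drawn up for the pathways of monocytes were compared by their counts with all named genes, of which 62.2% were enriched in both replicates. Reported mRNA targets of the ZFP36 family had 18 of 22 listed members enriched, 17 of them in the 3' UTR, with a median lower fold of 4.73 against 4.00 for all enriched genes. The list was compiled from the family's literature, not from these samples, though with results of these data known. Beside PIM3, its members high over IgG included the chemokine CXCL8 with 6.58 and 5.98 at the shared site, the growth factor VEGFA with 5.74 and 6.66, the receptor NOTCH1 with 5.71 and 5.46, and the cytokine IL1B with 5.42 and 6.93. PTGS2, PIM1, RIPK1 and IL23A were listed over input but not enriched over IgG in both. For PIM1 the folds were 2.26 and 5.96 and for PTGS2, the inducible cyclooxygenase, 2.68 and 2.96.

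Inflammatory mediators and their regulators were mixed, beside the 62.2% of all named genes that were enriched. Of cytokines and chemokines 5 of 10 listed members were enriched, namely CXCL8, VEGFA, IL1B, CXCL1 (5.28 and 5.51) and CXCL2 (4.18 and 5.87), all in 3' UTRs. CCL2 (3.20 and 3.28), TGFB1, TNFSF13B, TNFSF14 and IL23A were not. Of the NF-kB pathway 3 of 5 (60%) were enriched, near the share of all named genes. By coordinates 5 of 16 cytokines and chemokines and 4 of 27 NF-kB genes with clusters in both replicates were enriched, against 25.4% of all such genes. The 3 NF-kB genes by name were the adaptor TRAF2 at an intronic site (5.03 and 6.34), the inhibitor NFKBIA and the deubiquitinase TNFAIP3. NFKBIA had 4.43 and 4.80 at its shared site, and TNFAIP3 had 3.46 and 4.16. TNFAIP3 lost the call at a fold limit of 4 and at a −log10 p limit of 5. In innate sensing 6 of 6 listed members were enriched, but by coordinates 5 of the 17 members with clusters in both replicates were, where 25.4% of all such genes were. STING1 was followed by the DNA sensor CGAS (5.96 and 5.60), the inflammasome receptor NLRP3 (4.05 and 5.26) and the RNA-sensing adaptor MAVS (3.97 and 4.22). STING1 and CGAS, which act in the same DNA-sensing route, were thus both enriched in their 3' UTRs.

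Transcription factors and feedback genes of growth signalling were enriched in part. Among myeloid transcription factors 13 of 17 were enriched, with ZEB2 at 7.94 and 5.86 (chr2:144388383-144388483), CEBPD at 5.43 and 5.69, MEF2D at 5.04 and 5.07 and the intronic MYB site at 6.14 and 4.92. ZEB2 held the highest fold of replicate 1. Immediate early genes had 8 of 12 (66.7%), near the 62.2% of all named genes, among them FOS with 4.66 and 4.81, KLF2 with 4.52 and 4.72 and PLK3 with 4.25 and 6.14. JUN was not enriched, with 2.12 and 2.18. Signalling feedback genes had 11 of 16 (68.8%), also near that share, with CBL (5.88 and 5.55), SPRY4 (5.25 and 5.31), TRIB1 (4.80 and 4.83) and SPRED2, while CISH (2.47 and 4.20) and SMAD6 (2.81 and 3.62) fell short in replicate 1.

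Cell cycle regulators had 13 of 19 (68.4%) enriched, near the 62.2% of all named genes. Among them were CDK6 at 4.27 and 5.25 at its shared site, E2F3, CDK4 at 4.71 and 7.03, and MDM2. Apoptosis regulators had 10 of 12, with the survival gene BCL2 at 5.41 and 5.95 and the opposing BCL2L11 at 5.13 and 5.44, PMAIP1 at 5.08 and 4.99, and the death receptor TNFRSF10B at 5.15 and 5.56. Hypoxia and metabolism genes had 16 of 17, 12 of them in 3' UTRs, with VEGFA, the amino acid transporter SLC7A5 (5.60 and 5.85) and the sterol sensor INSIG1 (5.27 and 5.47). By coordinates, 15 of 36 cell cycle, 10 of 22 apoptosis and 18 of 27 hypoxia and metabolism genes with clusters in both replicates were enriched. Of all such genes 25.4% were. Both pro-survival and pro-death members of the BCL2 family were among the enriched.

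Among regulators of mRNA stability, binders of AU-rich mRNAs were enriched above the share of all named genes (62.2%) and decay factors near it. Of all 3113 enriched genes 28.9% had an enriched 3' UTR cluster in both replicates. Binders of AU-rich mRNAs had 18 of 19 members enriched, 7 of them in the 3' UTR. ELAVL1, the stabilising protein HuR, had 5.09 and 4.06 at its shared 3' UTR site, and HNRNPD, AUF1, had 4.79 and 6.54 in an intron. PUM2, a Pumilio protein, had 4.91 and 4.32 at a shared intronic site. mRNA decay factors had 17 of 25 (68.0%) enriched, 6 in the 3' UTR. The deadenylase subunit PAN3 had 5.74 and 6.05 in an intron, AGO2, the slicing Argonaute, 4.84 and 5.06 at a shared 3' UTR site, and TNRC6B 4.74 and 5.81 and AGO3 4.55 and 4.68 in introns.

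Among abundant mRNAs, those of ribosomal proteins were seldom listed over input. Across all genes, 13418 had clusters in both replicates by coordinates and 5003 were listed in both by name. By coordinates 2 of 40 ribosomal protein genes and 6 of 20 housekeeping genes were enriched in both, against 25.4% of all such genes. Of 42 ribosomal protein genes, 40 had clusters in both replicates, 4 were listed over input and RPS3 alone was enriched by name in both. Its highest clusters did not overlap, with 4.11 at a 5' splice site in replicate 1 and 4.13 in a distal intron in replicate 2. At its shared site, in a distal intron, RPS3 had 3.90 and 3.68. Among 21 housekeeping mRNAs, 5 were listed and all 5 were enriched, led by the elongation factor EEF2 with 5.40 and 5.34, HSP90AB1 with 5.09 and 6.16 and ACTG1 with 4.56 and 4.60. ACTB and GAPDH had clusters in both replicates but were not listed. Of nuclear noncoding RNAs PVT1 (5.78 and 5.93), SNHG1 and MALAT1 (3.58 and 3.59) were enriched, and NEAT1 with 2.32 and 2.57 was not. By coordinates, 10 of 16 monocyte markers had clusters in both replicates, with CD14 and S100A8 at none, against 0 of 9 lymphoid and 0 of 8 erythroid and megakaryocytic markers. Of these 10 monocyte markers 5 were enriched over IgG by coordinates, against 25.4% of all such genes. By name 4 were listed over input, FCER1G (4.61 and 4.93), VCAN, ITGB2 and CTSS. All 4 were enriched, against 62.2% of all named genes.

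Small structural RNAs lay below IgG. Clusters in small nucleolar RNA genes had a median log2 fold of −2.78 (590 clusters) and −2.60 (571), and 0 and 1 of them were enriched. Ribosomal RNA genes had −2.37 and −2.28 and transfer RNA genes −1.93 and −1.56, with none enriched. The mitochondrial chromosome had −1.94 and −1.59, with 1 of 152 and 2 of 147 clusters enriched. Of the 1041 and 604 clusters at or below −3, 186 and 153 overlapped a small nucleolar RNA gene.

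MicroRNA hairpins were likewise low. The 75 and 67 clusters on hairpins had median folds of −1.06 and −1.54, and 1 of replicate 2 was enriched. The highest hairpins by the lower replicate were those of miR-98 (2.54 and 2.90) and miR-16-2 (2.35 and 3.59), neither of which was enriched in both replicates. A mature arm of each, from RefSeq, is shown because these hairpins came nearest to the limit in both replicates, with the seed (bases 2 to 8) in capitals.
hsa-miR-98-5p: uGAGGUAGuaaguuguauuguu
hsa-miR-16-2-3p: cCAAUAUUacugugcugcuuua

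A small group of listed clusters stood apart, since it exceeded input and lay below IgG. In 42 of the 20074 overlapping pairs, on 16 genes, both replicates were below 0, and 8 further pairs were below 0 in 1 replicate. Of these 42 pairs 17 lay in coding sequence and 14 in 5' UTRs by the replicate 1 annotation. The 3' UTR of RAB13, a vesicle GTPase, had −3.84 and −3.64 over IgG with 4.11 and 4.87 over input (chr1:153981832-153982089). The proteoglycan gene CSPG4 had −2.75 and −2.37, and CADM4, a cell adhesion gene, was also below 0. NIBAN2, outside these 16 genes, had −1.06 and −1.62 at 3' UTR clusters that did not overlap between replicates. In coding sequence NES, the intermediate filament nestin, ranged from −2.99 to −1.71 in replicate 1, and VGF, a neurosecretory protein, had −2.88 to −2.31. SOX5 (−3.63 and −3.32), GRK5, NCKAP1 and ARHGAP5 were below IgG in their 5' UTRs. Next among 3' UTR genes, PRKAG1 (1.47 and 0.84), PHF21A, LRRC8B and MAP1LC3B lay above 0 but below 2.

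A few sites were enriched over IgG in both replicates without being listed over input in either. These were 127 of the 7528 shared clusters, all inside a RefSeq gene by coordinates, with a median lower fold of 3.31. The highest was in PPP3R1, the regulatory subunit of calcineurin, with 5.75 and 4.80 (chr2:68180248-68180346). NACC2 (4.45 and 4.25), the sheddase ADAM10 (4.23 and 4.21), SLC7A5 (4.69 and 4.06) and the receptor TGFBR1 (4.04 and 4.18) followed. Clusters are listed only where they pass the limits over input, and the folds of these 127 over input were not given.

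MOLM13, the other line of the series, had clusters at most of the same places. Of the 7528 shared THP1 clusters 95.7% overlapped a cluster in both MOLM13 replicates, and 31.2% overlapped an enriched one in both. Of the 3385 clusters of MOLM13 replicate 1 that were enriched in both of its replicates, 69.0% overlapped enriched clusters of both THP1 replicates. The MOLM13 lists held 140287 and 182486 clusters. None of these shares was set against that of clusters not enriched, so they do not set the enriched clusters apart. SERINC3 reached 6.23 and 6.99 in MOLM13 and NNT 8.07 and 7.62, while IL1B, at 0.57 and 0.76, and CXCL8, at 0.91 and −0.29, stayed below 3 there. The lists of the lines were scaled separately, and the differences between them were not tested.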

How the data were processed

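Per the submitters' processing notes, the authors used cutadapt 1.14, STAR 2.5.0c, Picard 2.6.0 and edgeR, with hg19, GRCh37 and hg38 named and no roles given. The peak caller, the read depth per library and the scaling were not given in the sources used here. The deposited lists hold, for each cluster, the authors' −log10 p (at most 400, and 0 for 103425 and 89035 clusters) and their log2 fold of immunoprecipitate over IgG. One list was made per pair, so replicates were not pooled. Precision cannot be given as reads, and shares of clusters describe these libraries.

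Clusters were read with pandas 2.3.3 and named by identical coordinates through the deposited input tables (5626 of 6161 names matched RefSeq, 170 through an Ensembl ID or older symbol). Replicates were compared by overlaps of at least 1 base on the same strand, with functions tested on simulated intervals. Calls rest on the authors' fold and p. A limma 3.58.1 fit of the 2 paired folds was added after seeing the data, for each replicate 1 cluster with the replicate 2 cluster sharing most bases. It leaves 1 residual degree of freedom, and its prior degrees of freedom were infinite, so every cluster was judged by a common SD of 0.78. The design fixed no test because none was thought possible. Regions and lists were not tested. No genome was used, so motif shares were read from RefSeq windows in place of the planned windows on each cluster. Members and gene lists were chosen with earlier results of these data known. Named genes were the TIS11 family, the highest genes per region by the lower replicate, up to 4 enriched genes per list, the 3' UTR genes lowest over IgG, and the highest shared clusters not listed over input. Other genes named, among them those not enriched, were chosen after their values were seen. Some named genes that the rule gives are not reported here.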

Additional observations from a re-analysis of the deposited data

How the results depend on the processing

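The 7528 shared clusters, 3113 genes and 901 3' UTR genes stayed within 1.5 times under a fold limit of 2, a −log10 p limit of 5, centring, a minimum cluster length of 20 bases, an overlap of 50% of the shorter cluster, merging before the overlap (5316 sites, against 5318 when merged after it) and RefSeq names (3405 genes). A fold limit of 4 left 2587 clusters, 1552 genes and 426 3' UTR genes. With 1 replicate left out, calls from the other alone gave 8786 to 12038 clusters, 3471 to 3954 genes, 1088 to 1241 3' UTR genes and a 3' UTR share of 18.4% to 20.3%. That share, 20.6% as reported, was 19.4% at a fold of 2, 24.9% at 4, 20.7% at a −log10 p of 5, 20.2% with centring and 22.0% for clusters of at least 20 bases. The SD between replicates that judged it is small because their shared clusters overlap by definition. Centring shifts replicate 2 by 0.38 and replicate 1 by 0.0019, and the coding sequence median, averaged over replicates, then went from 3.20 to 3.01. Of 80 named enriched genes, TNFAIP3, MAVS, VIM and MALAT1 lost the call at a fold of 4, TNFAIP3 at a −log10 p of 5 and MALAT1 for clusters of at least 20 bases. The paired limma fit (replicate block), with a mean log2 fold of at least 3 in place of both limits in each replicate, gave 12215 clusters, 7495 of them among the 7528, 3955 genes, 1157 3' UTR genes and a 3' UTR share of 18.5%. The planned motif windows on clusters, both lengths, and their stricter fold limit were not run, and the RefSeq windows were chosen after seeing the data, since no genome was used. Read depth, which limits how low a fold can be seen, is not given.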
